A study of Trichechus manatus latirostris with 11 samples.

Results

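The glucocorticoid receptor gene and genes that are commonly read as a response to stress hormone were examined in white blood cells of Florida manatees. The genes were chosen by symbol, and 9 symbols were sought: NR3C1, FKBP5, TSC22D3, SGK1, DDIT4, PER1, KLF9, ZBTB16 and CD163. In all, 7 of the 9 had a row, and because TSC22D3 had 2 transcript records there were 8 rows of the 15298 in the table. SGK1 and CD163 had no matching row and were not analysed here.

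Glucocorticoids such as cortisol are released by the adrenal cortex during stress. Their receptor waits in the cytoplasm in a complex with HSP90 and its co-chaperones, enters the nucleus once hormone is bound, and there switches on genes that carry its response elements. It also restrains cytokine genes that are driven by NF-kB and AP-1. In blood, glucocorticoids are known for raising the number of circulating neutrophils, for lowering lymphocytes and eosinophils, and for their anti-inflammatory action.

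The red tide group (n = 4) was made up of adult manatees that had been rescued from a red tide and were under treatment at Lowry Park Zoo in Tampa, where, by the study's methods, 2 were sampled on arrival and 2 after a week in care. The control group (n = 7) was made up of adults from outside the red tide area, for which earlier exposure could not be fully known, and of which 4 came from Crystal River, 2 from the Indian River Lagoon and 1, recovering from pneumonia, from Lowry Park Zoo. Buffy coat, the white cell layer of centrifuged blood, was taken from every animal, and ribosomal and globin RNA were depleted before sequencing. Rescue from the bloom and collection date went with the group, and so did illness, care and place, apart from the 1 control at the zoo, which was ill and in care as well. These cannot be told apart from exposure. Storage may have differed too, since the labels describe RNAlater for all samples and the study's methods also describe direct freezing in the red tide group. The sources used here do not say whether any animal had received a glucocorticoid drug, nor what its cortisol level was.

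The table lists, for each transcript record, the mean normalized count in each group, that is, the mean of read counts after division by a size factor that puts libraries of unequal depth on 1 scale. The columns do not name the groups. One mean averages 4 libraries, as many as there were red tide animals, and the other averages 7, as many as there were controls. The title of the table also names red tide first, as the 4-library mean comes first. The direction of change given in the study's own text implies the opposite assignment, however. It gives the cytokine IL6 as 635-fold lower and the chemokine receptor CXCR2 as 9.15-fold higher with red tide. By the same folds, IL6 was higher and CXCR2 lower in the 4-library mean. This conflict was not resolved here. The means are therefore called the 4-library and the 7-library mean, and no value below is a statement that a gene was higher or lower with red tide. Size factors ran from 0.372 to 1.56 in the 4 libraries and from 0.702 to 1.73 in the 7 libraries. They scale the counts of a library and are not its number of sequenced reads, which the study's text gives as a mean and a range. For 5 of the 8 rows the whole reads of each of the 4 libraries could be worked out from the 4-library mean and the overall mean. For KLF9 and ZBTB16 the 4-library mean alone left 3 combinations of reads, and the overall mean reduced them to 1. These libraries are named by size factor because they are not tied to animals. The reads of the 7 libraries could not be worked out for any of the 8 rows, so the spread of that group is unknown and no test between the groups was possible for these genes. Intervals given for ratios of means cover counting error only, under equal expression in the libraries of a group. Transcript lengths were not available here, so levels were not compared between genes beyond naming the most abundant or weakest markers of a list. Those words refer to the mean normalized count over all 11 libraries, uncorrected for length.

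KLF9 and ZBTB16 were about 4-fold higher in the 4-library mean, PER1 was above 2-fold and DDIT4 just under it. The receptor gene NR3C1 and FKBP5 were 1.65-fold and 1.54-fold higher, the main record of TSC22D3 hardly differed, and its minor record was lower in the 4-library mean. At a threshold of 2-fold, 3 of the 8 rows were higher in the 4-library mean, against 12.3% of all 10225 rows with a mean of at least 10, and 1 of the 8 was lower, against 9.59%. At 4-fold, 2 of the 8 rows were higher, against 3.81% of all rows, and 0 were lower, against 1.41%. With the 4-library mean divided by the 7-library mean, the median log2 ratio was 0.84 for the 8 rows and -0.01 for the 10225. A ratio above 1 was found in 7 of the 8 rows and in 49.2% of all rows. A row with less than 10 in 1 group passes the limit on the mean only through the other group, where it then has to be higher, and the minor TSC22D3 record is such a row. In bulk samples such as these, more cells of a type and more RNA per cell cannot be told apart.

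**Figure D1:**
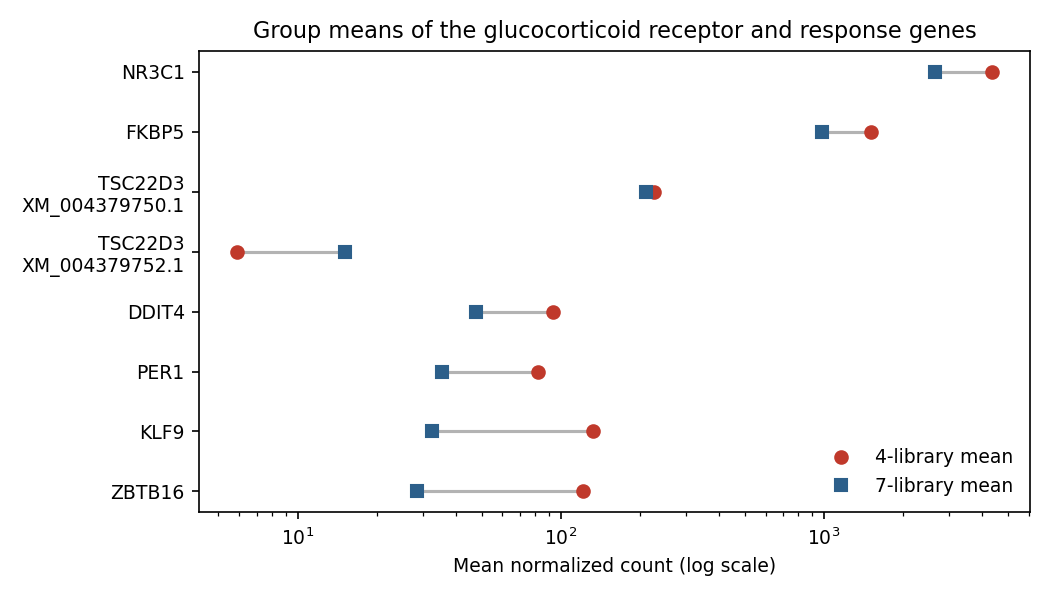
Mean normalized count (log axis) of each row over the 4 libraries (circles) and over the 7 libraries (squares), with a grey line joining the means of a row. The widest gaps are those of ZBTB16 (122 against 28.4) and KLF9 (133 against 32.4), and only the minor TSC22D3 record has the square to the right of the circle.

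NR3C1 encodes the glucocorticoid receptor itself. It (XM_004381137.1) had a 4-library mean of 4352 normalized counts and a 7-library mean of 2632, a 1.65-fold difference. Its log2 ratio was 0.73 (95% counting interval 0.69 to 0.76), and 18.2% of all rows with a mean of at least 10 had a higher ratio. A ratio of this size was thus common in the table.

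FKBP5 encodes a co-chaperone that lowers the receptor's affinity for hormone and is itself induced by the receptor, which closes a short feedback loop. It (XM_004379397.1) had a 4-library mean of 1507 normalized counts and a 7-library mean of 980. Its log2 ratio was 0.62 (95% counting interval 0.57 to 0.68), and 21.6% of all rows had a higher ratio. As for NR3C1, the means were too high for single libraries to be worked out, so the intervals hold no animal-to-animal spread.

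KLF9 encodes a Krüppel-like zinc finger repressor that the receptor induces in many tissues. Its 4 libraries (XM_004375801.1) held 196 normalized counts at size factor 1.56, 151 at 1.03, 93.5 at 0.620 and 91.5 at 0.372, from 553 reads in all. All 4 lay above the 7-library mean of 32.4. Since 7 libraries with that mean can include at most 2 at or above the lowest of the 4, most of the 7 lay below all of the 4. The 4-library mean was 133 ± 50.4 (SD, n = 4), and the log2 ratio was 2.04 (95% counting interval 1.81 to 2.27). A higher ratio was found in 3.71% of all rows, and log2 ratios lay between 1.79 and 2.18 when single libraries were omitted.

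ZBTB16 encodes PLZF, a zinc finger repressor of developing lymphoid and myeloid cells whose transcript is strongly induced by glucocorticoids in several cell types. Its 4 libraries (XM_004382519.1) held 157 normalized counts at size factor 1.56, 129 at 1.03, 41.9 at 0.620 and 159 at 0.372, from 463 reads. Each exceeded the 7-library mean of 28.4, but the library of size factor 0.620 stood well below the other 3, and up to 4 of the 7 libraries could have reached its level. The 4-library mean was 122 ± 54.9 (SD, n = 4), with a log2 ratio of 2.10 (95% counting interval 1.86 to 2.35). A higher ratio was found in 3.53% of all rows. Without single libraries the log2 ratio lay between 1.95 and 2.39.

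PER1 encodes a core component of the circadian clock and carries a well known glucocorticoid response element. Its 4 libraries (XM_004376004.1) held 78.9 normalized counts at size factor 1.56, 64.3 at 1.03, 46.7 at 0.620 and 137 at 0.372. All 4 lay above the 7-library mean of 35.3, although up to 5 of the 7 libraries could have reached the lowest of them. The 4-library mean was 81.8 ± 39.2 (SD, n = 4) and the log2 ratio 1.21 (95% counting interval 0.96 to 1.46), with 9.22% of all rows higher. This call depended on 1 library: without that of size factor 0.372, whose value rested on 51 reads, the log2 ratio was 0.84, which is under 2-fold, and without any other library it was at least 1.23.

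DDIT4 encodes REDD1, an inhibitor of mTORC1 signalling that is induced by glucocorticoids and also by hypoxia and by DNA damage. Its 4 libraries (XM_004383249.1) held 98.1, 96.4, 91.9 and 86.1 normalized counts in order of falling size factor. All 4 were close together and above the 7-library mean of 47.8, of which at most 3 libraries could have reached the lowest of the 4. The 4-library mean was 93.1 ± 5.38 (SD, n = 4), a coefficient of variation of 5.78% where counting error alone gives 12.6%. Of the rows with 4-library means of 50 to 140, 1801 had reads that could be worked out. Only 0.444% of these 1801 had a smaller coefficient of variation, and their median was 35.9%. At means of 80 to 140, where DDIT4 lies, reads were worked out for 698 of 1259 rows. The log2 ratio was 0.96 (95% counting interval 0.73 to 1.19), with 12.8% of all rows higher.

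TSC22D3 encodes GILZ, a leucine zipper protein that binds NF-kB and AP-1 and is among the most direct anti-inflammatory targets of the receptor. Its main record (XM_004379750.1) had a 4-library mean of 225 normalized counts and a 7-library mean of 211. The log2 ratio of 0.10 had a 95% counting interval from -0.04 to 0.23, and it was -0.047 when each group mean was divided by its sum over all rows, so no direction is given.

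The minor record of TSC22D3 (XM_004379752.1) had 13, 9, 4 and 0 reads in the 4 libraries in order of falling size factor, or 8.34, 8.76, 6.45 and 0 normalized counts. All 4 lay below the 7-library mean of 15.1. The library at 0 had the smallest size factor, and its count of 0 allows a level of up to 8.07. The 4-library mean was 5.89 ± 4.05 (SD, n = 4), with a log2 ratio of -1.36 (95% counting interval -2.12 to -0.61), and 4.53% of all rows had a lower ratio. Without the library at 0 the log2 ratio was -0.95, which is under 2-fold. The minor record made up 2.55% of the summed 4-library means of the gene and 6.70% of the summed 7-library means. The records belong to the same gene, and the sources used here do not say how reads shared by them were split, so the difference between them is uncertain. Summed over both records the log2 ratio was 0.03.

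**Figure D2:**
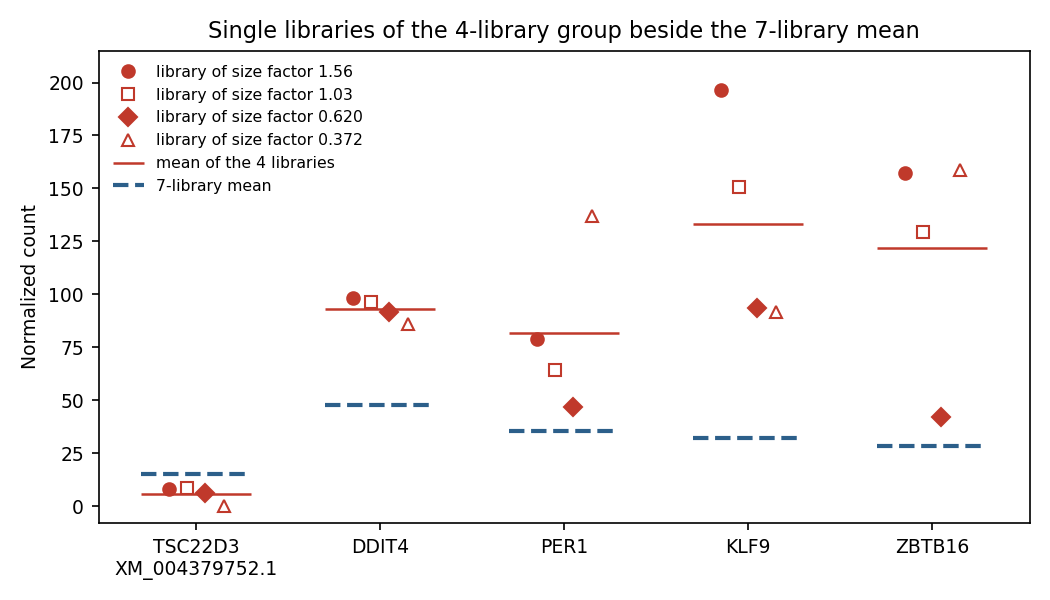
Normalized count of each of the 4 libraries (red symbols, 1 shape for each size factor) with their mean (red line) and the 7-library mean (blue dashed line), for the 5 rows whose reads could be worked out. In DDIT4, PER1, KLF9 and ZBTB16 every symbol lies above the blue line, in the minor TSC22D3 record every symbol lies below it, and DDIT4 alone is tight, at 86.1 to 98.1.

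Among the 5 rows with single libraries, then, all 4 libraries lay above the 7-library mean in 4 rows and below it in 1. Of the 5257 rows with a mean of at least 10 whose 4 libraries could be worked out, 14.5% had all 4 above and 26.5% all 4 below. Rows with a 4-library mean above 140 are missing from both shares.

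The genes did not follow 1 order across the 4 libraries. The library of size factor 0.372 held more than that of size factor 1.56 for PER1 (137 against 78.9) and less for KLF9 (91.5 against 196). The library of size factor 0.620 was the lowest for PER1 and ZBTB16, and it stood apart in some other genes too. Over the 1801 rows with 4-library means of 50 to 140 whose reads were worked out, it was the highest in 26.0% and the lowest in 27.2%. For the library of size factor 0.372 these shares were 30.6% and 28.8%. The sums that follow cover only markers with a mean of at least 10 whose reads were worked out. The summed normalized count of 5 neutrophil genes (CXCR1, CXCR2, LCN2, MMP9 and PADI4) was 548 in the library of size factor 0.620 and 125 to 276 in the other 3. PADI4 alone went the other way, with 16.1 in it and 18.8 to 31.2 in the others. The summed count of the platelet genes GP9 and GP1BA was 330 in it and 59.2 to 90.5 in the others. That of the monocyte genes CCR2, CD68 and VCAN was 118 in it and 169 to 234 in the others, although CCR2 by itself was not lowest in it. The immediate early genes FOSB and ATF3 together came to 35.5 in it and 88.6 to 140 in the others. ATF3 by itself was not lowest in it, at 24.2 against 21.4 at size factor 1.03. Immediate early rows under a mean of 10 were divided. EGR3 was highest in it, at 8.06 against 2.92 to 5.38 in the others, and IER3 held 16.1 in it and 6.81 to 18.8 in the others. FOSL1 and NR4A1 had 0 reads in it. The part of these differences in the values of PER1 and ZBTB16 was not tested.

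Transcripts of the proteins that hold, fold and assist the receptor differed by less than 2-fold between the means. Of 21 listed genes of chaperones, co-chaperones, coactivators and corepressors 16 had a row, and 15 rows had a mean of at least 10. Of the 15, 0 were past 2-fold in either direction, against 12.3% of all rows higher and 9.59% lower. The median log2 ratio was -0.16. HSP90AA1, the stress-inducible HSP90, had a log2 ratio of 0.31 and HSP90AB1, the constitutive one, 0.36. FKBP4, the co-chaperone that opposes FKBP5 in the receptor complex, had -0.03. The largest differences were those of CREBBP (17.6 and 30.3 normalized counts, log2 ratio -0.78), a histone acetyltransferase, and of STIP1 (51.0 and 85.4, log2 ratio -0.74), which links HSP70 to HSP90, both lower in the 4-library mean. A minor record of SMARCA4, the ATPase of a chromatin remodelling complex, had a log2 ratio of -1.48 at means of 2.26 and 6.29, under the limit of 10.

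HSD11B1, the enzyme that regenerates active from inactive glucocorticoid inside cells, was 2-fold or more lower in the 4-library mean. Its 4 libraries (XM_004375191.1) held 39.1, 68.1, 38.7 and 26.9 normalized counts in order of falling size factor, all below the 7-library mean of 109. The log2 ratio was -1.34 (95% counting interval -1.62 to -1.06), and -1.65 to -1.17 with each of the 4 libraries left out. H6PD, which supplies the cofactor of this enzyme, had means of 39.7 and 51.7 and a log2 ratio of -0.38. Its 4 libraries held 24.4, 19.5, 21.0 and 94.2 normalized counts in the same order. Only the last, from 35 reads, lay above the 7-library mean, so the 4-library mean rested largely on 1 library. HSD11B2, the enzyme that inactivates the hormone, was near the detection limit, with 8 reads in 1 of the 4 libraries and 20 reads in 4 of the 7, of which 16 were in 1 library.

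Other genes known to be induced by glucocorticoids were divided. Of 23 listed genes that are less tied to inflammatory signalling 12 had a row, and 10 rows had a mean of at least 10. Of the 10, 1 was at least 2-fold higher in the 4-library mean, against 12.3% of all rows. At least 2-fold lower were 3, against 9.59%. The median log2 ratio was -0.07, and -0.01 over all 10225 rows. CITED2, a transcriptional coregulator, was the higher one (178 and 64.8 normalized counts, log2 ratio 1.46). The lower ones were CRISPLD2, a secreted protein that binds endotoxin (31.6 and 193, log2 ratio -2.61), STEAP4, a metalloreductase (488 and 1249, -1.36), and PDK4, which restrains glucose oxidation (30.3 and 71.4, -1.24). The 4 libraries of CRISPLD2 held 13.5, 51.6, 61.2 and 0 normalized counts and those of PDK4 held 41.1, 23.4, 35.5 and 21.5. All of these lay below the respective 7-library mean. The library of CRISPLD2 at 0 allows a level of up to 8.07. TXNIP, a glucose-responsive inhibitor of thioredoxin, had a log2 ratio of -0.54 and IL7R, the interleukin 7 receptor, 0.07.

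RASD1, a Ras-related protein named for its induction by dexamethasone, had a mean of 8.92 and its reads could be worked out in all 11 libraries. Its 4 libraries held 19.2, 8.76, 21.0 and 16.1 normalized counts, and its 7 libraries had a lowest value of 0, a median of 1.81 and a highest value of 17.1. The groups overlapped through a pair of the 7 libraries, which held 17.1 and 9.05. The exact two-sided permutation test over 330 splits gave p = 0.0273 and, with Benjamini-Hochberg adjustment over the 4449 rows with reads in all 11 libraries, 0.175. No row of the 4449 passed an adjusted p of 0.05 by this test, and 956 rows, or 21.5%, had an unadjusted p under 0.05. The 4449 rows have a 4-library mean no higher than 140 and a 7-library mean no higher than 6, limits that favour rows with the higher 4-library mean. RASD1 is such a row, and it was tested after its values had been seen, so nothing is read from its p-value. HIF3A rested on 1 read in each group.

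Genes that glucocorticoids share with inflammatory and stress signalling were mostly higher in the 4-library mean. Of 21 genes listed 19 had a row, and 18 rows had a mean of at least 10. Of the 18, 11 were at least 2-fold higher, against 12.3% of all rows, and 1 was at least 2-fold lower, against 9.59%. The median log2 ratio was 1.45. ERRFI1, an inhibitor of EGF receptor signalling, had means of 10294 and 373 normalized counts and a log2 ratio of 4.79. TNFAIP3, the NF-kB inhibitor A20, had 7412 and 486 (3.93), and NFKBIA, the inhibitor IκBα, had 14717 and 2059 (2.84). THBS1, an adhesive glycoprotein of platelets, had 19820 and 2099 (3.24), and the chemokine receptor CXCR4 had 3335 and 530.3 (2.65).

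Within the same list, the cell cycle inhibitor CDKN1A had 58.4 and 8.10 normalized counts (2.85). DUSP1, a phosphatase of MAP kinases and a classic target of the receptor, was under 2-fold at 4730 and 2667 (0.83). BCL6, a transcriptional repressor, went the other way. Its 4 libraries held 3.21, 0, 14.5 and 2.69 normalized counts from 15 reads, all below the 7-library mean of 36.2. Its log2 ratio was -2.83. When the library of size factor 0.620 was omitted, which held 9 of the 15 reads, it was -4.20. Its library at 0 allows a level of up to 2.92. CDKN1A and BCL6 passed the limit of 10 only through the group in which they were higher.

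Cytokine and related genes that glucocorticoids are known to restrain were higher in the 4-library mean in each of the 7 rows with a mean of at least 10, out of 12 genes with a row and 20 listed. All 7 were at least 2-fold higher, against 12.3% of all rows, with a median log2 ratio of 4.45. IL6 and IFNG, however, passed the limit of 10 only through the 4 libraries. Over all 12 rows 8 were at least 2-fold higher and 3 at least 2-fold lower, and the median was 2.92. IL1B had means of 19298 and 880 normalized counts (log2 ratio 4.45), IL1A 3116 and 17.4 (7.48) and CXCL8, the neutrophil attractant interleukin 8, 42281 and 3670 (3.53). PTGS2, the inducible cyclooxygenase, had 1041 and 101 (3.37), and IL6 had the highest log2 ratio of the list, 9.31. The 4 libraries of TNF held 91.7, 77.9, 111 and 129 normalized counts, all above the 7-library mean of 39.6, with a log2 ratio of 1.37.

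IFNG, the interferon of T and NK cells, had reads in all 11 libraries worked out. Its 4 libraries held 24.4, 13.6, 14.5 and 199 normalized counts, and its 7 libraries had a lowest value of 0, a median of 0.904 and a highest value of 4.62. Each of the 4 lay above each of the 7, as in 2.81% of the 4449 rows (the reverse held in 0.0674%). Nothing is read from this and no test is given, because the limits on both means and on the overall mean left room for such a row in this direction only. The library of size factor 0.372 carried most of the difference in the mean: the log2 ratio was 5.36 with it but 3.52 when it was left out. Rows of the list under a mean of 10 were divided, with the chemokine CXCL10 (1.93 and 7.52) and the T cell growth factor IL2 (3.38 and 9.64) at least 2-fold lower in the 4-library mean and the endothelial adhesion molecule SELE (10.8 and 1.95) at least 2-fold higher. IL4, with 1 read in the 4 libraries, was too weak for a ratio to be read.

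**Figure D3:**
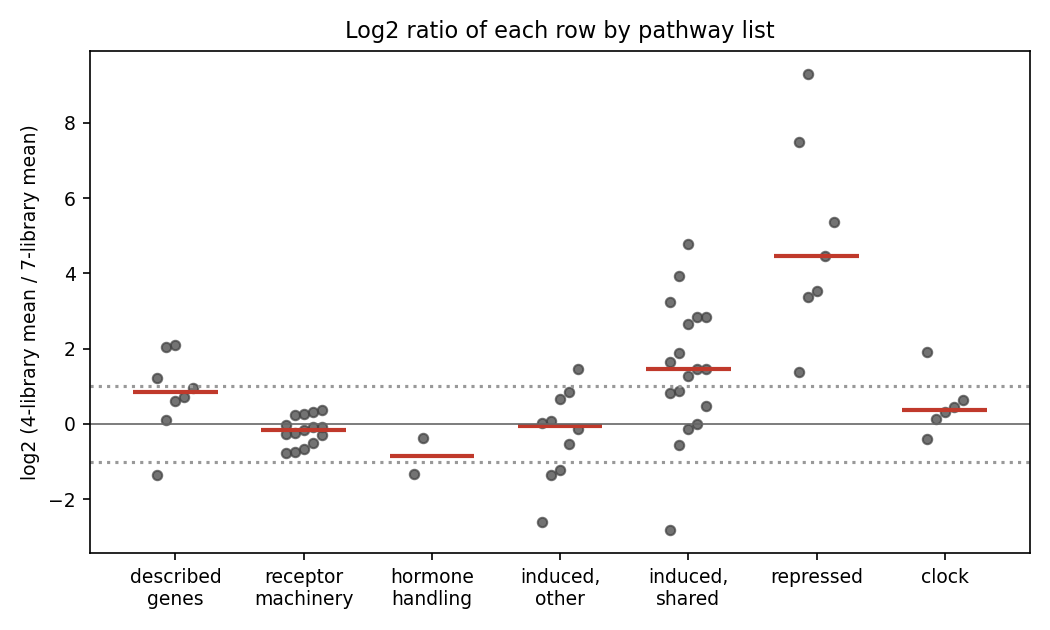
Log2 of the ratio between the 4-library and the 7-library mean for each row with a mean of at least 10 (dots), by pathway list, with the median of each list (red line), 2-fold limits (dotted) and no difference (solid line). The receptor machinery stays within the 2-fold limits, while all 7 rows of genes that glucocorticoids restrain lie above them, at 1.37 to 9.31, with 5 weaker rows of that list not drawn.

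PER1 is also a clock gene, and KLF9 is a clock-linked factor. Of 18 other clock genes listed 8 had a row, and 6 rows had a mean of at least 10. Of the 6, 1 was at least 2-fold higher in the 4-library mean, against 12.3% of all rows, and 0 were lower, against 9.59%. The higher one was BHLHE40, a repressor that also responds to hypoxia (1592 and 427 normalized counts, log2 ratio 1.90). CRY1 had a log2 ratio of 0.62, CRY2 0.31 and DBP -0.40. TEF, at means of 1.05 and 2.43, was too weak for a ratio to be read. The sources used here do not give the hour of each blood draw.

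Markers of blood cell types also differed between the means, and the values of the neutrophil and immediate early lists were known when the lists were chosen. Of all rows, 12.3% were at least 2-fold higher in the 4-library mean and 9.59% at least 2-fold lower. Of 9 neutrophil rows with a mean of at least 10, all 9 were at least 2-fold lower in the 4-library mean (median log2 ratio -2.41). Their most abundant genes were the calprotectin subunits S100A9 (835 and 5429 normalized counts) and S100A8 (576 and 2961). The summed 4-library and 7-library means of 10 neutrophil genes were 2252 and 12826. No neutrophil marker with a row was at 0 in either mean, and MPO, at 4.44 and 2.34, was the weakest. Of 5 platelet rows, 4 were at least 2-fold higher in the 4-library mean, and the most abundant were TUBB1, a platelet tubulin (6392 and 1422), and the integrin ITGA2B (3996 and 1919). Summed over the 5 platelet genes the means were 15250 and 4419. Of 7 immediate early rows, all 7 were at least 2-fold higher (median log2 ratio 2.97), and the most abundant were the AP-1 subunits FOS (4972 and 1277) and JUNB (4064 and 903). ATF3 and FOSB passed the limit of 10 only through the 4 libraries, and over all 11 immediate early rows 10 were at least 2-fold higher. The part of these differences in the ratios of KLF9, ZBTB16, PER1, DDIT4 and the other genes above was not tested.

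**Figure D4:**
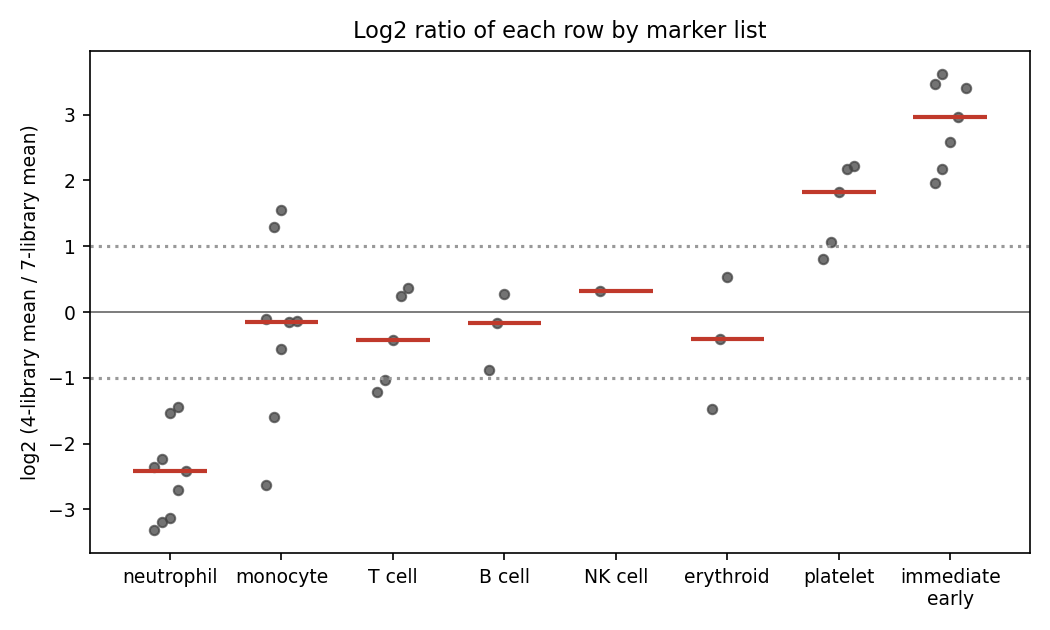
Log2 of the ratio between the 4-library and the 7-library mean for each row with a mean of at least 10 (dots), by list of cell type markers or immediate early genes, with list medians (red line), 2-fold limits (dotted) and no difference (solid line). All 9 neutrophil rows lie below the lower limit and all 7 immediate early rows lie above the upper limit. Lymphocyte medians run from -0.42 (T cell, 2 of 5 rows below the lower limit) to 0.31 (NK cell, only 1 row).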

How the data were processed

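Reads were cleaned with Cutadapt and mapped with Bowtie2 to TriManLat1.0 by the authors, who removed duplicates and counted uniquely mapped reads. The sources used here name no counting program or annotation release. The deposited signal is the authors' mean of counts over DESeq size factors, for all 11 libraries and by group. Columns with the authors' own fold changes, log2 fold changes and p-values were not used. The table holds 0 columns of single samples of another series.

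Transcript records, without version, were matched to symbols in RefSeq's table for TriManLat1.0 (10080 of 15298 rows, 65.9%). That table names no scaffold, so no coordinates are given. The background was the 10225 rows with an overall mean of 10 or more, and a call needed 2-fold. A group mean adds up whole reads, and the worth of 1 read in each library was read from low means and refined by least squares. Reads were kept where only 1 combination matched both the deposited group mean and the overall mean, to 1.2 times their rounding. This held in 10330 of 10893 rows (4-library mean up to 140) and 4463 of 4505 rows (7-library mean up to 6). The first limit had been 80, and was raised, with the overall mean as a further constraint, after the data had been seen. The method was tested on simulated data. Counting intervals (95%) assume Poisson reads, and a count of 0 was given a limit of 3 reads. Labels give replicate numbers and no animal, so p-values measure the spread between these libraries.

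The genes and lists were chosen with earlier results of these data known. Named genes are those of the symbol list and, per pathway list, rows with a mean of at least 10 and a ratio of at least 4-fold, or the 3 largest ratios where fewer than 3 qualify, and for cell markers the 2 most abundant. The others were named after their values had been seen, and the exact test of RASD1 was added then. A planned test of the described genes, and a search for genes of similar pattern, needed reads in all 11 libraries, which none of them had. Alternatives concerned scaling, pseudocount, thresholds, filters and single libraries. Python 3.11.15, numpy 2.4.6, pandas 2.3.3 and scipy 1.17.1 were used.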

Additional observations from a re-analysis of the deposited data

How the results depend on the processing

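No paired analysis was possible because the table has group means and no column that carries a replicate number. Dividing each group mean by its sum over all rows lowered every log2 ratio by 0.14 (median over all rows -0.15), to 0.58 for NR3C1, 0.48 for FKBP5, 0.82 for DDIT4 and -0.047 for the main TSC22D3 record. Of the described rows, 6 were at least 1.5-fold higher, and at 3-fold none was lower (0). With each of the 4 libraries left out where reads were known, 2 to 3 rows were at least 2-fold higher and 0 to 1 lower. Without a filter on low means, 23.9% of all rows were at least 2-fold higher. With all rows of a list, 1 receptor machinery row, 1 clock row and 1 NK cell row were at least 2-fold lower, 3 rows of the less inflammatory induced genes and 1 erythroid row were higher, and 3 rows of the restrained genes were lower. Medians became -0.38 for hormone handling, 2.92 for the restrained genes and 0.062 for erythroid genes. With 1 row per symbol, 1 monocyte row was at least 2-fold higher. Reads of the 4 libraries were known for 1 row under the first limit and for 5 under the raised one. Centring on all rows or on reference genes and a pseudocount of 1 kept every described row on its side of 2-fold. Without single libraries, the exact permutation p of RASD1 ranged from 0.00952 to 0.0417, and nothing is read from it, as above.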

Other observations

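Other blood cell lists held rows in both directions, where 12.3% of all rows were at least 2-fold higher and 9.59% lower. Of 8 monocyte rows with a mean of at least 10, 2 were at least 2-fold higher in the 4-library mean and 2 at least 2-fold lower (median log2 ratio -0.15). The most abundant were LYZ, lysozyme (1243 and 1839 normalized counts), and CSF1R, the receptor of macrophage colony-stimulating factor (449 and 496). The chemokine receptors CCR2 (47.7 and 296) and CX3CR1 (111 and 335) were the lower ones. CD163 itself, the scavenger receptor that glucocorticoids induce on monocytes, was not analysed here. Of 5 T cell rows none was at least 2-fold higher and 2 were lower, CD2 (123 and 285) and CD4 (145 and 297), while the most abundant, THEMIS, had 327 and 253. The 3 B cell rows lay within 2-fold, with MS4A1 at 370.1 and 415 and BLK at 376 and 311. NCAM1, the NK cell row with a mean of at least 10, had a log2 ratio of 0.31. Of 3 erythroid rows 1 was at least 2-fold lower, ALAS2, the first enzyme of heme synthesis in red cells (168 and 467), and the transcription factor GATA1, which platelet precursors also use, had 418 and 288. All 9 reference gene rows lay within 2-fold, with a median log2 ratio of -0.01.

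VSIG4 and MERTK, receptors of macrophages that glucocorticoids are known to raise, had log2 ratios of 0.02 (46.9 and 46.4 normalized counts) and -0.15 (127 and 140.3). The 4 libraries of VSIG4 held 28.9, 37.0, 27.4 and 94.2 normalized counts in order of falling size factor. Only the last, from 35 reads, lay above the 7-library mean, so the 4-library mean of VSIG4 rested largely on 1 library. FPR1, the formyl peptide receptor of neutrophils and monocytes, had means of 698 and 442 (0.66), and the neutrophil chemokine receptor CXCR2 had a log2 ratio of -3.19. The difference between them was not tested.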
